A study of Mus musculus with 7 samples.

Results

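Mitochondrial DNA is transcribed by machinery that is encoded entirely in the nucleus, and small RNA counts for 10 of these nuclear genes were compared between heart mitochondria of Tefm knockout and control mice. The 10 genes were given by name, all were found among the 49584 listed features, and all are protein-coding. They are Polrmt, Tfam, Tfb2m and Tefm, which carry out transcription, the RNA-binding proteins Lrpprc, Slirp and Grsf1, the DNA helicase Twnk, and Pnpt1 and Supv3l1 of the RNA decay complex. Controls (3 libraries, labelled L/L, genotype Tefm +/+) had Tefm alleles in which loxP sites flank an exon. Knockouts (4 libraries, labelled L/L, cre, genotype Tefm -/-) carried the same alleles and a cre transgene under the muscle creatine kinase promoter, so that heart cells other than muscle cells keep the gene. Libraries were treated as separate mice because the design text counts mice; if some shared a mouse, the p-values would cover technical spread only. The design text names 4 control mice, of which 3 were analysed here, and no source used here gives the ages.

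The RNA polymerase of mitochondria, POLRMT, starts at a promoter together with TFAM, which bends and packages the DNA, and TFB2M, which opens the strands, and TEFM then joins the enzyme and keeps it on the template. LRPPRC and SLIRP form a complex that holds mitochondrial mRNAs stable, GRSF1 binds G-rich transcripts in RNA granules, and the exonuclease PNPase (Pnpt1) and the helicase SUV3 (Supv3l1) degrade RNA together. All are made from nuclear mRNAs translated in the cytosol. In a small RNA library of crude mitochondria a count for such a gene is therefore a fragment of an mRNA that came with the fraction, and it does not measure the protein.

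All 10 genes matched a promoter entry of RefSeq (GRCm38.p6), which runs from 250 bases before to 50 after a gene start. Genes of this kind are known for promoter sites of the ETS factor GABPA and of NRF1, so the letters CCGGAAG (the ETS core) and TGCGCA (a core part of the NRF1 site) were searched on both strands. CCGGAAG was present for 6 of the 10 genes, namely Tefm, Polrmt, Tfam, Slirp, Grsf1 (in 1 of its 2 entries) and Twnk (in 1 of 2), and for 9.93% of the 27025 genes in the table. TGCGCA was present for Polrmt and Tfb2m, and for 8.79% of genes. The table also holds noncoding genes, and a match is a stretch of letters, not a site shown to be bound. The promoters of the targeted gene, of the polymerase it serves and of Grsf1, whose count ratio had an interval above 1, are shown with matches to either motif in capitals. Each reads 5′ to 3′ along its gene, on the minus strand, at chr11:80142104-80142403, chr10:79746532-79746831 and chr5:88676122-88676421.
Tefm: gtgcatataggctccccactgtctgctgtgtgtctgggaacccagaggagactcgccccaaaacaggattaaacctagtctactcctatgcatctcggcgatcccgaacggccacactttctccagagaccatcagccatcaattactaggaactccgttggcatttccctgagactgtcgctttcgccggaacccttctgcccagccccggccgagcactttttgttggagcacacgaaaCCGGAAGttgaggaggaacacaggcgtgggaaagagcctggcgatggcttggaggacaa
Polrmt: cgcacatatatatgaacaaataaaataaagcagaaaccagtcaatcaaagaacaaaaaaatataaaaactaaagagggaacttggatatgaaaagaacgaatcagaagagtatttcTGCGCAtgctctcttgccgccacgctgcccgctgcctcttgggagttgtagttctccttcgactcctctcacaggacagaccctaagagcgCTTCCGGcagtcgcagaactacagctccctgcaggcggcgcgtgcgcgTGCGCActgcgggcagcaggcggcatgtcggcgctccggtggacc
Grsf1: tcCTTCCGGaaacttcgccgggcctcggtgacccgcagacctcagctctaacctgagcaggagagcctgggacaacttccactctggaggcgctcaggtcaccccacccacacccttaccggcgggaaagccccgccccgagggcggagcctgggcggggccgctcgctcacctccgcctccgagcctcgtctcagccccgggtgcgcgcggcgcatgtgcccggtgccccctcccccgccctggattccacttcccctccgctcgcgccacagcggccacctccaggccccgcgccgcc
Tefm and Grsf1 hold a single CCGGAAG match each, just before the gene start in Tefm and at the far end of the window in Grsf1. Polrmt holds 1 such match and 2 of TGCGCA.

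Libraries held between 973835 and 2570739 gene counts, and the 10 genes together took between 37 and 151 of them. A gene with no count could still be present at 1.17 to 3.08 CPM (counts per 1000000 counts, here of the whole library). This is the level that 3 counts would give in the deepest and the shallowest library. On the scale of edgeR's TMM library sizes, 3 counts are 0.946 CPM in knockout 4, the largest, and 4.58 CPM in knockout 1, the smallest. These limits and the intervals below cover counting error only. Nuclear protein-coding genes made up 2.28% to 7.40% of the counts in 6 libraries and 18.2% in knockout 4. All 8 cardiomyocyte markers had counts, summing to 3076 to 4141 CPM after edgeR's TMM scaling, the scale of all CPM below unless said otherwise, in controls and 1488 to 2145 in knockouts. The 5 fibroblast markers summed to 234.5 to 413.2 and 194.0 to 584.1 CPM, the 4 endothelial markers to 72.5 to 143.1 and 30.1 to 77.9, the 6 white blood cell markers (S100a8 at 0, Cd74 called) to 24.2 to 36.3 and 9.91 to 19.6, and the 5 erythroid markers to 11.4 to 19.2 and 5.02 to 18.3. Of 2 liver and 2 neural markers Apoa1 and Snap25 were at 0, and the others had at most 4 counts in a library. The part of these differences in the results below was not tested. In such bulk samples fewer cells of a type and less RNA per cell cannot be told apart.

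Across all genes, 105 of the 1505 genes tested (6.98%) were called by edgeR's quasi-likelihood fit at an adjusted p under 0.05. Of the 10 genes 2, Lrpprc and Grsf1, had enough counts to enter this test, and 0 were called. At an unadjusted p under 0.05 edgeR also gave 0 of these 2, against 23.5% of all genes tested. DESeq2 called 0 of the 2, and 0 at an unadjusted p under 0.05, against 15.3% and 25.3% of all genes. With no filter on low counts all 10 entered among 15828 genes, and again 0 of the 10 were called by edgeR, with 0 at an unadjusted p under 0.05. Over all genes of that fit the shares were 1.21% and 8.26%, and 0 of 10 is near these. In that fit 7 of the 10 had positive log2 fold changes, with a median of 0.19, against 48.5% positive and a median of -0.05 over all genes. In the authors' deposited table the adjusted p-values of Tfam, Grsf1, Lrpprc and Polrmt are 0.551, 0.577, 0.896 and 0.993, and the other 6 genes have none.

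The targeted gene Tefm (GRCm38 chromosome 11, minus strand, 80136678 to 80142175; ENSMUSG00000046909.9) was counted 0, 2 and 1 times in controls 1 to 3, and 0, 1, 0 and 2 times in knockouts 1 to 4. At the control level 3.80 counts would have been expected over the knockouts and 3 were seen, so these libraries are too shallow to show a loss, and the genotype labels could not be checked with this gene. The deleted exon is not named in the labels, and fragments of the remaining exons would be counted in both genotypes.

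Tfam (ENSMUSG00000003923.14, chromosome 10, 71225464 to 71238280, minus strand) had the highest ratio of the 10 genes. Its counts were 1, 1 and 3 in controls 1 to 3 and 4, 3, 4 and 6 in knockouts 1 to 4. On the normalised scale 3 of 4 knockouts lay above all controls, and knockout 4 (1.89 CPM) lay just under control 3 (2.05 CPM). Over all libraries 5 control and 17 knockout counts gave a ratio of 2.69 per normalised library size, with an exact 95% interval from 0.951 to 9.31, and the unfiltered edgeR fit gave a log2 fold change of 1.32 ± 0.78 (SE, adjusted p = 0.672). Under 5 other scalings and with each of the 7 libraries left out the ratio stayed above 1, from 1.42 to 5.07, and the interval lay off 1 in 5 of these 12 settings. The highest ratio came with scaling to mitochondrially encoded counts. That scaling, and those to total and to microRNA counts, also shifted the median log2 fold change over all tested genes to 1.12, 0.89 and 0.88.

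Polrmt (ENSMUSG00000020329.12, chromosome 10, 79736123 to 79746581, minus strand), the polymerase itself, had 3, 7 and 3 counts in controls and 0, 1, 7 and 12 in knockouts. Controls were close together at 2.05 to 3.02 CPM, whereas knockouts 1 and 2 lay below them and knockouts 3 and 4 above. In knockouts 1 and 2, however, 3 counts would be 4.58 and 3.01 CPM, so these libraries are too shallow to place Polrmt below the controls. The ratio of 1.22 had an interval from 0.575 to 2.66, while the mean CPM was lower in knockouts (2.35 against 2.61), pooled counts giving most weight to libraries with the largest normalised size. Tfb2m (ENSMUSG00000026492.11, chromosome 1, 179528055 to 179546267, minus strand), the initiation factor, had 0, 2 and 0 counts in controls and 0, 1, 1 and 1 in knockouts, which is too few for a ratio. Summed, the 4 transcription genes were at 4.03, 4.71 and 4.79 CPM in controls and at 6.11, 6.02, 7.93 and 6.62 CPM in knockouts. The groups did not overlap, yet with 23 against 43 counts the ratio of 1.48 had an interval from 0.871 to 2.57. Tfam held 5 and 17 of these counts. The summed RNA-binding genes Lrpprc, Slirp and Grsf1 did not overlap either (ratio 1.34, interval 1.09 to 1.66), and the decay pair Pnpt1 and Supv3l1 did (0.976, 0.490 to 1.97). These sums by function were made on the TMM scale with all libraries only.

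Lrpprc (ENSMUSG00000024120.12, chromosome 17, 84705247 to 84790789, minus strand) took about as many counts as the other 9 genes together. The controls had 24, 48 and 30 counts and the knockouts 13, 34, 41 and 69 (libraries in order of replicate number), or 24.2, 18.8 and 20.5 against 19.9, 34.1, 27.1 and 21.8 CPM. Knockouts 2 and 3 lay above all controls and knockouts 1 and 4 within their range. The means of 21.2 ± 2.72 CPM (SD, n = 3) and 25.7 ± 6.39 CPM (SD, n = 4) differed by less than the spread of the knockouts (edgeR log2 fold change 0.29 ± 0.28 SE, adjusted p = 0.583). The 95% interval of the fitted fold ran from 0.785 to 1.90. Slirp (ENSMUSG00000021040.15, chromosome 12, 87443896 to 87452206, plus strand), the partner of Lrpprc, had only 1, 3 and 2 counts in controls and 1, 0, 3 and 2 in knockouts. Its ratio was 0.790 (interval 0.211 to 2.96).

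Grsf1 (ENSMUSG00000044221.14, chromosome 5, 88659448 to 88676171, minus strand) alone among the 10 genes had a counting interval above 1. Controls 1 to 3 held 9, 23 and 4 of its counts and knockouts 1 to 4 held 15, 11, 12 and 43, which are 9.06, 9.02 and 2.74 CPM against 22.9, 11.0, 7.93 and 13.6 CPM. Knockouts 1, 2 and 4 lay above all controls, and knockout 3 lay below controls 1 and 2. Of the 9106 nuclear protein-coding genes with more than 3 counts in a group, 948 also had a counting interval above 1. For Grsf1 the ratio of pooled counts was 1.78 (interval 1.19 to 2.71). The means of 6.94 ± 3.64 CPM (SD, n = 3) and 13.9 ± 6.46 CPM (SD, n = 4) did not pass the test over all genes (edgeR log2 fold change 0.92 ± 0.48 SE, adjusted p = 0.295), which unlike the counting interval includes the spread between mice. The edgeR log2 fold change was 0.41 without control 3, the lowest library, and 0.62 without knockout 1, the highest.

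The ratios of the decay pair lay on opposite sides of 1, with wide intervals. Pnpt1 (ENSMUSG00000020464.15, chromosome 11, 29130744 to 29161828, plus strand), the exonuclease, had 2, 5 and 3 counts in controls and 4, 1, 0 and 2 in knockouts. Controls lay at 1.96 to 2.05 CPM, knockout 1 above them at 6.11 CPM and the other knockouts below, at 0 to 1.0 CPM, and the ratio was 0.553 (interval 0.179 to 1.61). In knockouts 2 and 3, however, 3 counts would be 3.01 and 1.98 CPM, so these libraries are too shallow to place Pnpt1 below the controls. Supv3l1 (ENSMUSG00000020079.15, chromosome 10, 62429209 to 62449738, minus strand), its helicase, had 3, 4 and 0 counts in controls and 0, 6, 4 and 4 in knockouts (ratio 1.58, interval 0.597 to 4.63), with a library at 0 in each group. Twnk (ENSMUSG00000025209.4), the helicase that unwinds mitochondrial DNA for replication, had 3, 4 and 2 counts in controls and 0, 2, 4 and 10 in knockouts. Only knockout 4 lay above the controls and only knockout 1 below, with a ratio of 1.40 (interval 0.584 to 3.61) and mean CPM of 1.99 in controls and 1.95 in knockouts. Knockout 1, with 0 counts, is too shallow to place Twnk below the controls.

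**Figure D1:**
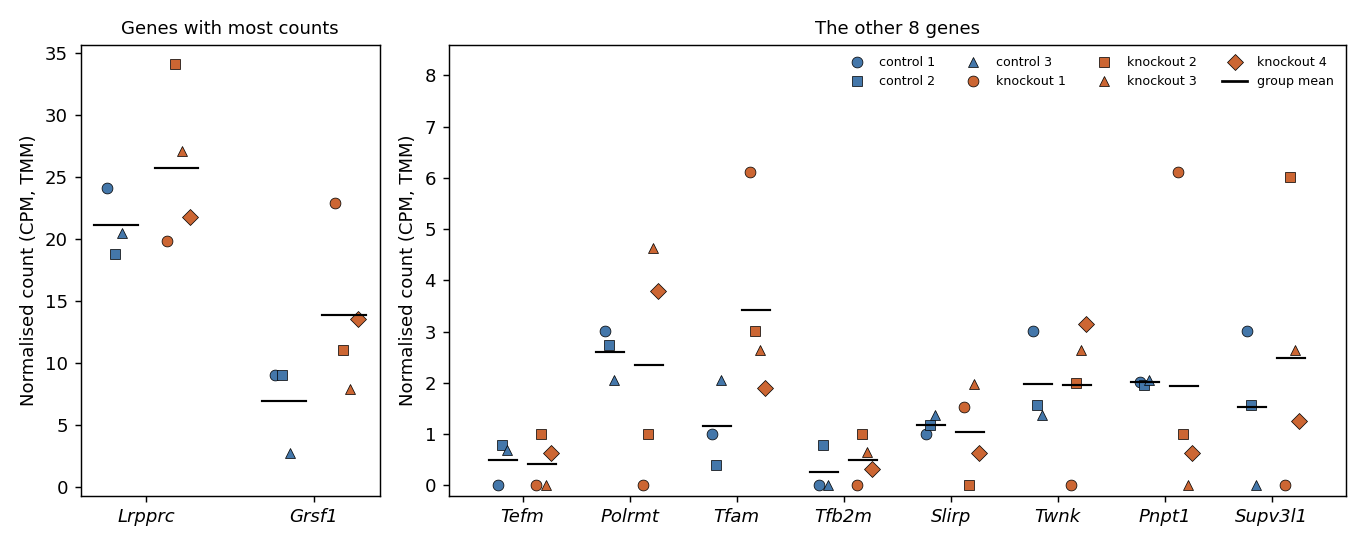
Normalised counts (CPM, edgeR TMM scaling) of the 10 genes in each library, with points for libraries, marker shapes for replicate numbers, colours for controls and knockouts, and bars for group means. Lrpprc and Grsf1 reach 34.1 and 22.9 CPM, the others stay at or below 6.11 CPM, and in no gene do the groups separate.

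Of the 10 genes 0 had every knockout library above every control, and 0 had every knockout below. Among the 15828 genes with no filter on low counts these patterns were held by 3.8% and 3.98%, and among the 1505 well-counted genes, which include only Lrpprc and Grsf1 of the 10, by 14% and 9.9%. Overlap with another gene bears on 3 of them, because the strand setting of the authors' counting is not given. Of the exon bases of Slirp 2914 also lie in exons of Snw1 and 122 in exons of Alkbh1, Twnk shares 507 with Mrpl43, and Supv3l1 shares 250 with 4930507D05Rik, all on the opposite strand. Counts of Slirp, Twnk and Supv3l1 are therefore uncertain.

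Per kilobase of annotated exon, Lrpprc and Grsf1 had like levels in controls, 2.49 and 2.29 CPM per kb. In knockouts they were at 3.02 and 4.57 CPM per kb. The other 8 genes were at 0.0932 to 0.571 CPM per kb in controls and 0.177 to 0.836 in knockouts. Among 12882 nuclear protein-coding genes with a count and an exon length, Grsf1 ranked 411 and Lrpprc 561 by this measure over all libraries, and Tfb2m was lowest of the 10 at 8226. As a share of the summed count, which no scaling between libraries affects, Lrpprc made up 52.8% in controls (95% Wilson interval 45.8 to 59.8) and 48.5% in knockouts (43.1 to 53.9). Grsf1 made up 18.7% (13.8 to 24.7) and 25% (20.6 to 30.0), and Tfam 2.59% and 5.25%. For each of the 3 the intervals of the 2 groups overlapped.

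Summed over the 10 genes, counts were 46, 99 and 48 in controls 1 to 3 and 37, 60, 76 and 151 in knockouts 1 to 4. In CPM these are 46.3, 38.8 and 32.8 in controls and 56.5, 60.2, 50.2 and 47.6 in knockouts. Every knockout lay above every control on this scale, the gap between knockout 4 and control 1 being narrow. This separation was lost under RLE scaling (ratio 1.24, 3 of 4 knockouts above all controls). It was also lost without any 1 of the controls and without knockout 1 or knockout 3. Whenever a library was left out, the low-count filter and the TMM sizes were computed anew from the remaining libraries. At unchanged sizes, leaving out a library cannot make separated groups overlap. The means were 39.3 ± 6.74 CPM (SD, n = 3) and 53.6 ± 5.76 CPM (SD, n = 4), and 193 against 324 counts gave a ratio of 1.33 (interval 1.11 to 1.59). No test was applied to the sum, because the genes were chosen with results of these libraries known.

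The size of that ratio moved with the scaling and with the libraries from which the scaling was computed. Per 100000 nuclear protein-coding counts the sums were 90.0, 61.8 and 60.7 in controls and 126.7, 134.5, 105.5 and 80.0 in knockouts, a ratio of 1.46 (interval 1.22 to 1.75) with knockout 4 below control 1. As CPM of the whole library, without TMM scaling, they were 29.5, 38.5 and 23.8 against 28.8, 46.1, 78.0 and 146.0, a ratio of 2.25 (interval 1.87 to 2.70) with knockout 1 inside the control range. Knockout 4, with the highest value, is also the library with 18.2% protein-coding counts, and the part of library composition in the ratio was not tested. Without control 1, 2 or 3, and with TMM sizes computed anew, the ratio was 1.19, 1.15 or 1.08 and its interval included 1. At unchanged sizes these 3 ratios could not all lie below the 1.33 of all libraries. The missing library and the new sizes both enter them, and their parts were not separated. Without Lrpprc and Grsf1 the remaining 8 genes had 55 and 86 counts, with a ratio of 1.24 (interval 0.871 to 1.77), and this sum was chosen after its values were seen.

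**Figure D2:**
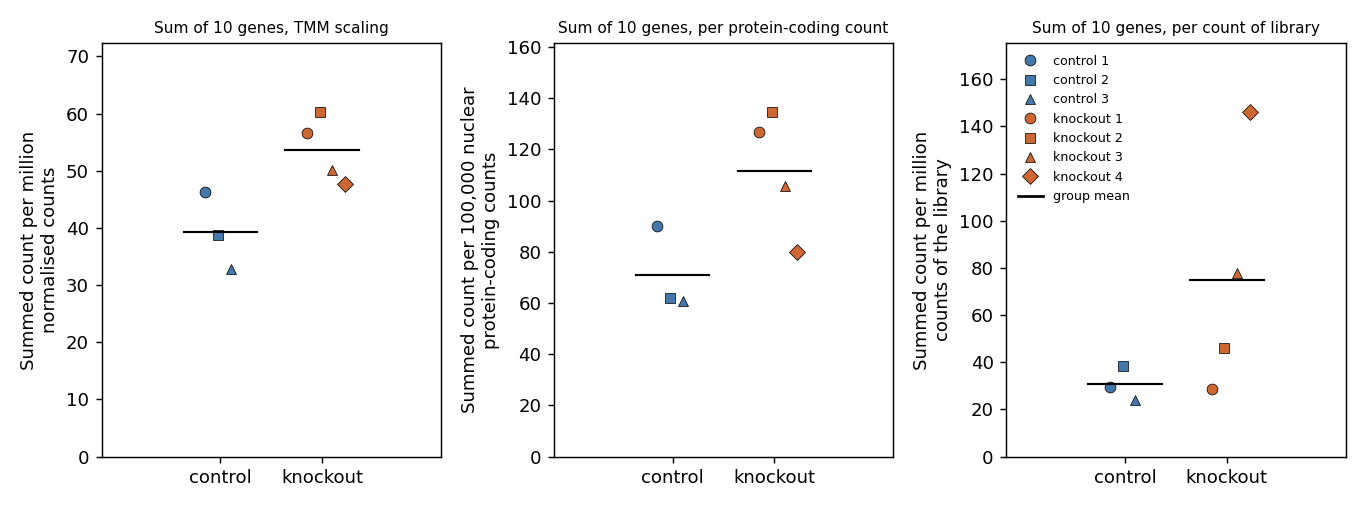
Summed count of the 10 genes in each library on 3 scales: CPM after TMM scaling, counts per 100000 nuclear protein-coding counts, and CPM of the whole library without TMM scaling. Points are libraries, shapes replicate numbers, and bars group means. Knockouts lie above all controls on the first scale (47.6 to 60.2 against 32.8 to 46.3), and on the other scales 1 knockout each lies within the control range.

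Of the 8 genes with enough counts for a ratio 6 had a ratio above 1, with a median of 1.31. Among these 6, Polrmt and Twnk had lower mean CPM in knockouts than in controls (2.35 against 2.61 and 1.95 against 1.99). Over the 9106 nuclear protein-coding genes with more than 3 counts in a group 54.8% had a ratio above 1, with a median of 1.07. The counting interval lay above 1 for 1 of the 8 and for 948 of the 9106, and below 1 for 0 and for 694.

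Other genes of the pathway were followed in a list of 47 genes for mitochondrial transcription, nucleoids and RNA processing and a list of 8 nuclear regulators of such genes. Of the 55 genes 53 had a count, 3 entered the edgeR test, and 1 rose and 0 fell. The gene that rose was Lonp1, a matrix protease that binds mitochondrial DNA and degrades TFAM. Its counts were 10, 27 and 14 in controls and 22, 60, 60 and 124 in knockouts, or 10.1, 10.6 and 9.58 against 33.6, 60.2, 39.6 and 39.1 CPM, so the groups did not overlap (edgeR log2 fold change 2.09 ± 0.31 SE, adjusted p = 0.0102). This call was lost without any 1 of the controls (edgeR adjusted p = 0.0609, 0.0989 and 0.1000 without controls 1, 2 and 3) under scaling to total, microRNA or mitochondrially encoded counts, and with the replicate number as a block (edgeR adjusted p = 0.0775), and it held in the other 9 of 16 alternatives. The log2 fold change stayed between 1.91 and 3.17 over all 16.

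Clpx, the unfoldase of another matrix protease, had 8, 15 and 12 counts in controls and 12, 18, 22 and 38 in knockouts. Every knockout lay above every control in CPM, and the test missed its threshold (edgeR log2 fold change 1.08 ± 0.27 SE, adjusted p = 0.0552). Ppargc1a, the coactivator that drives mitochondrial biogenesis, had 41 counts in controls and 60 in knockouts (0.35 ± 0.34 SE, edgeR adjusted p = 0.717). Next in count were Mrpl12, a ribosomal protein that also binds POLRMT, with 37 and 40 counts (ratio 0.854, interval 0.532 to 1.37), Fastk with 34 and 32 (0.744, 0.444 to 1.24) and Tbrg4 with 25 and 30 (0.948, 0.539 to 1.68), both of the latter being members of a family of mitochondrial RNA-binding proteins. Of the 46 listed genes with enough counts 23 had a ratio above 1 and 23 below, with a median close to 1. The counting interval lay above 1 for 5 of them, Lonp1, Clpx, Elac2 (7 against 26 counts), Atad3a (8 against 27) and Fastkd5 (0 against 7), and below 1 for 2, Endog (11 against 4) and Mrm2 (8 against 1); all but Lonp1 and Clpx are named here after their values were seen. The list of 47 summed to 439 counts in controls and 796 in knockouts, a ratio of 1.43 (interval 1.27 to 1.61), and its CPM sums did not overlap between the groups. Without Lonp1, left out after its value was seen, it summed to 388 counts in controls and 530 in knockouts, a ratio of 1.08 (interval 0.945 to 1.23), and the 8 regulators to 139 and 175 (0.995, 0.792 to 1.25).

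**Figure D3:**
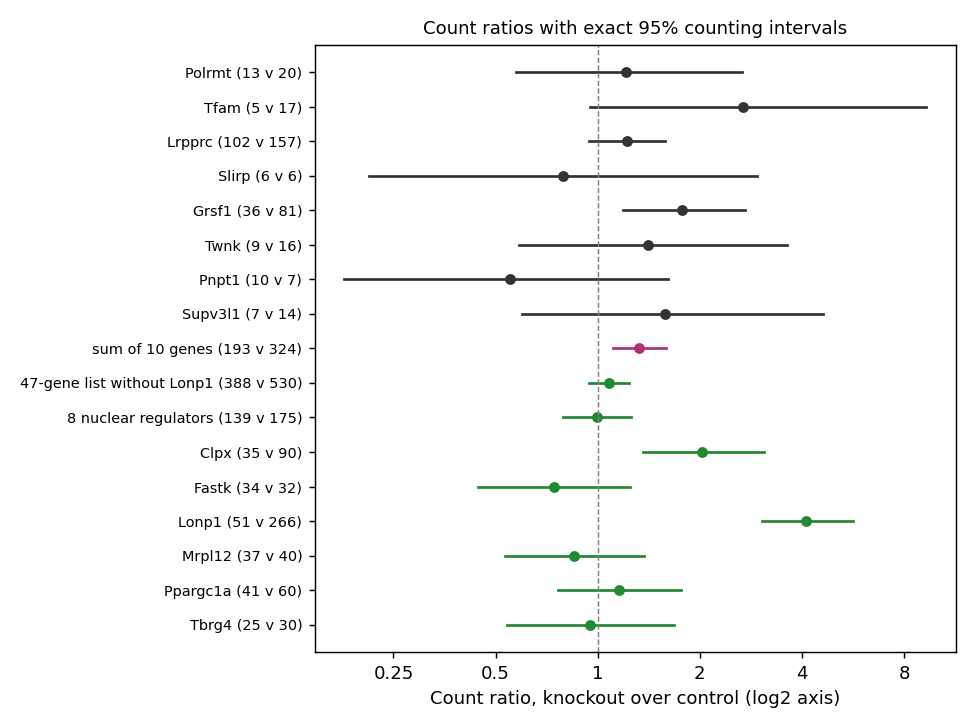
Ratios of counts, knockout over control, per normalised library size on a log2 axis, with exact 95% counting intervals as lines and raw counts (control v knockout) in the labels. The 8 genes with a ratio are dark, their sum purple and genes or sums of the wider lists green. Grsf1 (1.78), the sum (1.33), Clpx (2.03) and Lonp1 (4.12) have intervals above 1, and spread between mice is not part of these intervals.

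The 5 genes whose level followed the summed count most closely over the 7 libraries, among 1503 genes tested, were Zfand5 (Pearson r = 0.978), Kif5b (0.972), Cat (0.955), Kpnb1 (0.951) and Fabp3 (0.944). Cat is catalase and Fabp3 the fatty acid binding protein of heart muscle. Each was highest in knockout 2 or knockout 1 and lowest in control 3, as the sum was highest in knockout 2 and lowest in control 3. The 7 points share library depth and scaling, and these r are given as a description. None of the 5 was called by edgeR (lowest adjusted p = 0.0718, for Kif5b).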

How the data were processed

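Small RNA of crude heart mitochondria was sequenced with single reads on a MiSeq in 3 control and 4 Tefm knockout libraries, per the labels' protocols. Raw counts per gene were deposited by the authors. Tools named in the submitters' processing notes are featureCounts, bedtools, DESeq2 1.14.1, R 3.3.2, SAMtools 1.3.1, Bowtie2 and cutadapt 1.10, with build mm10 and no roles. No source used here gives the annotation release, the strand setting or the handling of reads with several matches. The authors' deposited table has columns for a mean signal, for p-values, for a score (Wald statistic) and for a log2 fold change with standard error, per the file headers.

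All 49584 features entered edgeR 4.0.16 in R 4.3.3 (quasi-likelihood, TMM, default filter with minimum count 10, two-sided). Calls needed an adjusted p (Benjamini-Hochberg, all genes tested) under 0.05. Count ratios used normalised library sizes and exact 95% conditional binomial intervals; groups with at most 3 counts each got none. Positions and exon lengths came from GENCODE M21 (GRCm38); the identifier of Twnk had another version there, so its position is left out. Alternatives were 5 scalings, 2 filters, DESeq2 1.42.0, a block on replicate number, leaving out each of 7 libraries, and other sums, 3 of them added after the data were seen. With a library left out, the filter and the scaling were computed anew. Genes named from the wider lists were those called and the 6 with most counts, plus 5 named for their counting intervals after the values were seen; the 5 most like the sum were taken by Pearson correlation of log2 CPM. The scripts were tested on simulated data. The members and lists were chosen with earlier results of these data known. Python 3.11.15, scipy 1.17.1 and pandas 2.3.3 were used.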

Additional observations from a re-analysis of the deposited data

Results flagged for a closer look

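The knockout libraries were checked for a library far from the other 3 in 17 sets of values, with Dixon's gap test at its 95% critical value, which chance exceeds in about 1 of 20 groups. Pnpt1 was at 6.11 CPM in knockout 1 and at 0 to 1.0 CPM in the other knockouts, which is 4 counts against 0 to 2. Ppargc1a was at 13.7 CPM in knockout 1 and at 8.59 to 9.15 CPM in the other 3.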

How the results depend on the processing

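For the 10 genes, 0 were called under each of the 16 alternatives, and Lrpprc and Grsf1 kept positive log2 fold changes in all 16 (0.05 to 1.36 and 0.41 to 1.91; edgeR or DESeq2 adjusted p from 0.298 to 0.975 and from 0.195 to 0.975). The log2 ratio of the sum was 0.41, and 0.11 to 0.62 with 1 library left out and the TMM sizes computed anew. The same log2 ratio was 1.17 when scaled to total counts and 1.32 when scaled to mitochondrially encoded counts. These 2 scalings and that to microRNA counts also shifted the median log2 fold change over all tested genes to 0.89, 1.12 and 0.88, and scaling to protein-coding counts to 0.19, against 0.02. Of all genes, 105 were called; DESeq2 called 231, no filter 192, scaling to total counts 11, to mitochondrially encoded counts 8, to microRNA counts 0 (edgeR's unadjusted p was under 0.05 for 28 genes), and leaving out 1 library 0 to 75 (0 without control 2 or control 3, where edgeR gave 395 and 407 at an unadjusted p under 0.05). The split into higher and lower calls was 79 and 26, against 131 and 100 with DESeq2, 10 and 1 when scaled to total counts and 7 and 1 when scaled to mitochondrially encoded counts. Lonp1, the 1 listed gene called, was lost (0 listed genes called) under scaling to total, microRNA or mitochondrially encoded counts, and leaving out 1 library gave 0 to 2 called, Clpx being added without knockout 4. The cause was not tested. With the replicate number as a block 0 genes were called in all, 0 of the lists and 0 of the 10 (edgeR's unadjusted p was under 0.05 for 338 genes, Grsf1 among them). Deviations of same-numbered libraries from their group means correlated at 0.501, -0.763 and 0.300, and only control 3 deviated most like its own number. Deviations from means of so few libraries are not independent, so these values cannot show whether same-numbered libraries share more than a number. Depth limits the other 8 genes, with at most 13 counts in controls and 20 in knockouts.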
